A study of Saccharomyces cerevisiae with 4 samples.

Results

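The phosphate-responsive PHO genes of budding yeast were examined by their systematic ORF names: the acid phosphatases PHO5 (YBR093C), PHO3 (YBR092C), PHO11 (YAR071W) and PHO12 (YHR215W), the alkaline phosphatase PHO8 (YDR481C), the phosphate transporters PHO84 (YML123C) and PHO89 (YBR296C), the regulators PHO81 (YGR233C) and SPL2 (YHR136C), and the polyphosphate synthesis gene VTC3 (YPL019C). Of these 10 genes, 8 were among the 6348 ORFs listed in at least 1 library, and 6 had enough reads to be tested. They were selected by ORF name.

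The study set transcript levels at different ploidies side by side. It compared 2 MATa haploid cultures with 2 MATaaaa tetraploid cultures of Σ1278b (strain Sigma 1278b in the labels), a laboratory background of Saccharomyces cerevisiae. Both strains are described as wild type apart from the alleles ura3-52, leu2::hisG and his3::hisG, and the tetraploid is isogenic to the haploid. Each ploidy is thus represented by 1 strain. Cultures were grown at 30 °C to mid-log phase in synthetic complete medium with 2% glucose, and neither the labels nor the methods describe a limitation for phosphate. The replicate letters in the labels, A and B, tie each haploid to its tetraploid partner, giving pair A and pair B. The a-specific genes STE2, BAR1 and MFA1 had 454 to 2085, 204 to 669 and 34 to 184 reads per library. Each was lower in tetraploids, with log2 fold changes of -2.25, -1.94 and -2.43. The alpha-specific genes MFALPHA1 and MFALPHA2 were not listed or had 2 to 13 reads, and the alpha-specific receptor gene STE3 had 28 to 32. MFA1 came close to STE3 in tetraploid A, with 34 reads, on a coding length of 111 bases in S288C against 1413.

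Poly(A) RNA was sequenced, and the authors deposited the number of uniquely mapped reads on each ORF. The totals on ORFs were 3612527 to 4133193 reads per library, and the median listed ORF had 73 to 117 reads. ORFs of the ribosomal DNA held 38.3% and 39.1% of these reads in haploids A and B, and 36.6% and 33.3% in tetraploids A and B. Reads were scaled here to CPM, counts per 1000000 reads of the library after correction with TMM factors, which assume that most genes do not change. All levels are therefore shares of a library, so a change in RNA per cell is not measured. The test for ploidy was edgeR's quasi-likelihood test on counts, with ploidy and pair in the model. It covered the 5680 genes that reached 15 reads in either library of pair A and in either library of pair B. A gene was called at a Benjamini-Hochberg adjusted p under 0.05.

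When phosphate is plentiful, the cyclin and kinase pair Pho80 and Pho85 phosphorylates the transcription factor Pho4 and keeps it out of the nucleus. When phosphate runs short, the inhibitor Pho81 blocks the kinase, and Pho4 with its partner Pho2 switches on the genes for scavenging phosphatases, high-affinity transporters and polyphosphate synthesis. The secreted acid phosphatase Pho5 and the transporter Pho84 are classical readouts of this switch. Pho3 is a closely related acid phosphatase that is known as the constitutive form.

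None of the 6 tested PHO genes was called between haploids and tetraploids. Their log2 fold changes, tetraploid over haploid, ran from -0.45 for PHO5 to 0.24 for PHO84, with a median of -0.18, against a median of 0.01 over all tested genes. In the same fit 7.87% of all tested genes were called, 5.35% lower and 2.52% higher in tetraploids. At an unadjusted p under 0.05 the count of PHO genes was 0 as well, where 24.8% of all tested genes passed. DESeq2 and limma-voom called 0 PHO genes, and 0 at an unadjusted p under 0.05, which 7.90% and 25% of all tested genes passed. Every 95% interval lay between -0.91 and 0.68 on the log2 scale, so each excluded a 2-fold change in either direction. That exclusion was lost for PHO5 without the pair as a block (lower bound -1.09) and for PHO84 with libraries scaled by summed counts (upper bound 1.02).

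**Figure D1:**
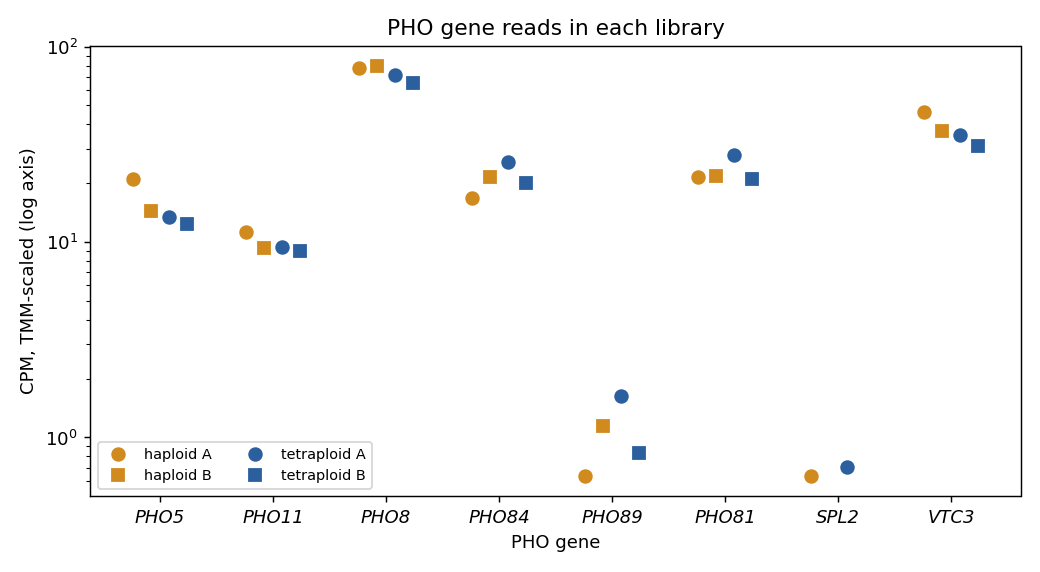
Reads on each listed PHO gene in CPM (TMM-scaled, log axis) in haploid (orange) and tetraploid (blue) libraries of pair A (circles) and pair B (squares). PHO8 was the highest gene in each library, at 65.0 to 79.2 CPM, PHO89 and SPL2 lay at the bottom, and SPL2 has points for pair A alone because it was not listed in pair B.

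Per kilobase of coding sequence, most of the tested PHO genes were transcripts of low abundance. Over the 4 libraries the mean level was 43.1 CPM per kilobase for PHO8, 14.9 for VTC3, 12.0 for PHO84, 10.9 for PHO5, 6.93 for PHO11 and 6.51 for PHO81. The median over the 5299 tested genes with a coding length in the reference strain S288C was 23.3 CPM per kilobase. PHO8 alone lay above it, higher than 68.8% of these genes, while VTC3 was higher than 34.3%, PHO84 than 26.7%, PHO5 than 24.0%, PHO11 than 11.7% and PHO81 than 10.4%. Neighbours in this order overlapped across libraries for VTC3 (12.4 to 18.6) and PHO84 (9.58 to 14.7), for PHO84 and PHO5 (8.78 to 15), and for PHO11 (6.40 to 7.94) and PHO81 (5.91 to 7.91). The lowest value of PHO8 was 38.2 CPM per kilobase, above every value of the other tested PHO genes. The level and rank of PHO11 are not comparable with the others and may be far too low. Its reads were divided by the whole coding length, but only reads with 1 best place in the genome were counted. In S288C only 8.55% of its 36-base windows occur once, as set out below for the acid phosphatases. Where PHO11 stands relative to the median and to PHO8 is therefore not known.

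**Figure D2:**
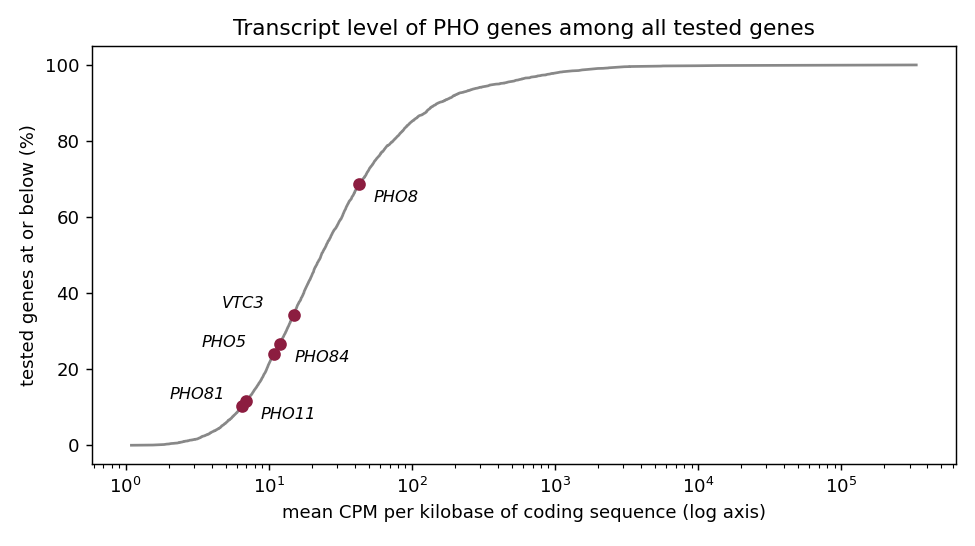
Cumulative share of tested genes (vertical axis, percent) by mean CPM per kilobase of coding sequence over the 4 libraries (horizontal axis, log scale), with the 6 tested PHO genes as points. PHO8 is the only one plotted above the median of 23.3 CPM per kilobase. PHO11 may be plotted far too low, because only 8.55% of its 36-base windows occur once in S288C.

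The acid phosphatases resemble each other, and PHO11 and PHO12 are near-copies, which limits what unique mapping can count. In S288C the coding sequences of PHO11 and PHO12 are 99.7% identical, and those of PHO5 and PHO3 86.5%. Only 8.55% of the 36-base windows of PHO11 and 9.57% of those of PHO12, the length of a read here, occur once in that genome. The share was 82.5% for PHO5, 87.1% for PHO3, and 100% for PHO8, PHO84, PHO89, PHO81, SPL2 and VTC3. PHO3 and PHO12 were not listed in any of the 4 libraries, so no value is given for them, and why they were absent was not tested. These window counts come from another strain and need not hold in Σ1278b.

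PHO5 had 66 reads in haploid A, 51 in haploid B, 57 in tetraploid A and 59 in tetraploid B. In CPM the haploids stood at 21.0 and 14.5 and the tetraploids at 13.4 and 12.3. Both tetraploid libraries lay below both haploid libraries, with the highest value in haploid A. Haploids averaged 17.8 ± 4.64 CPM and tetraploids 12.9 ± 0.754 CPM (SD, n = 2 each). The log2 fold change of -0.45 (standard error 0.22, 95% interval -0.91 to 0.01) was not called by edgeR's test (adjusted p = 0.215). Pair A gave -0.65 and pair B -0.23, and scaling by summed counts instead of TMM factors gave -0.16.

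PHO11 had 35 reads in haploid A, 33 in haploid B, 40 in tetraploid A and 43 in tetraploid B. The scaled values of 11.2 and 9.37 CPM in haploids overlapped with 9.40 and 8.98 CPM in tetraploids. Its log2 fold change was -0.15 (standard error 0.26, 95% interval -0.70 to 0.39, adjusted p = 0.756 from edgeR's test), the widest interval of the 6 genes. Reads that match PHO11 and PHO12 equally well are not counted by unique mapping.

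PHO8 encodes the alkaline phosphatase of the vacuole. It had 244 and 279 reads in haploids A and B, and 303 and 311 in tetraploids A and B, the most of any of the 10 genes. In CPM the haploids stood at 77.8 and 79.2 and the tetraploids lower, at 71.2 and 65.0. The log2 fold change came to -0.21 (95% interval -0.49 to 0.07, adjusted p = 0.352 from edgeR's test), and scaling by summed counts turned it to 0.08.

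PHO84 encodes the high-affinity transporter that couples phosphate uptake to protons. It had 53 reads in haploid A, 76 in haploid B, 110 in tetraploid A and 96 in tetraploid B. In CPM these were 16.9 and 21.6 in haploids, and 25.8 and 20.1 in tetraploids. The order of the ploidies differed between pairs: tetraploid A was above haploid A by 0.61 on the log2 scale, while pair B gave -0.10. Over both pairs the log2 fold change was 0.24 (standard error 0.21, 95% interval -0.20 to 0.68, adjusted p = 0.516 from edgeR's test), the highest of the 6 genes. The haploid libraries differed by 0.35 (B over A) and the tetraploid libraries by -0.37, each larger than the difference between the ploidies. In S288C the gene overlaps an annotated noncoding RNA gene, and reads of both strands were counted, so sense and antisense transcripts cannot be told apart.

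PHO89 encodes the other high-affinity transporter, which uses sodium and works at alkaline pH. It had 2 reads in haploid A, 4 in haploid B, 7 in tetraploid A and 4 in tetraploid B, under the 15 reads required for the test. A count of 2 was the lowest in every file and was given to 105 to 149 ORFs per library, against 45 to 71 ORFs with 3 reads. Whether a listed 2 is an exact count is therefore not known, and no fold change is given for this gene.

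PHO81 encodes the inhibitor of the Pho80 and Pho85 kinase and is itself a target of Pho4. Reads on PHO81 numbered 67 in haploid A, 77 in haploid B, 119 in tetraploid A and 100 in tetraploid B. The haploids lay close together at 21.4 and 21.9 CPM, and the tetraploids at 28.0 and 20.9 on either side of them. Pair A gave a log2 fold change of 0.39 and pair B one of -0.06, with 0.16 over both (standard error 0.19, 95% interval -0.24 to 0.57, adjusted p = 0.640 from edgeR's test).

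SPL2 encodes a small protein, induced under low phosphate, that represses low-affinity transport. It was listed in pair A alone, with 2 reads in haploid A and 3 in tetraploid A, and was not tested.

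VTC3 encodes a subunit of the vacuolar transporter chaperone, the complex that makes polyphosphate. It had 146 reads in haploid A, 130 in haploid B, 150 in tetraploid A and 149 in tetraploid B. In CPM the haploids stood at 46.5 and 36.9, and both tetraploids lower, at 35.2 and 31.1. The log2 fold change of -0.32 (standard error 0.15, 95% interval -0.65 to 0.00) had the smallest p of the 6 genes in edgeR's test and was not called (adjusted p = 0.206). Pair A gave -0.40 and pair B -0.25, and scaling by summed counts gave -0.04.

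The tetraploid libraries lay below both haploid libraries for 3 of the 6 genes, PHO5, PHO8 and VTC3, and above both for 0. Among all tested genes 20.5% lay below and 21.9% above, and with 6 genes no test was made of this count. The count depended on the scaling. With summed counts, which moved the median log2 fold change of all genes to 0.30, 0 of the 6 lay below and 3 lay above (PHO11, PHO84 and PHO81), against 6.43% and 45.5% of all tested genes. With the ORFs of the ribosomal DNA left out of the sums, 2 lay below (PHO5 and VTC3) and the same 3 above, against 9.61% and 36.4%.

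**Figure D3:**
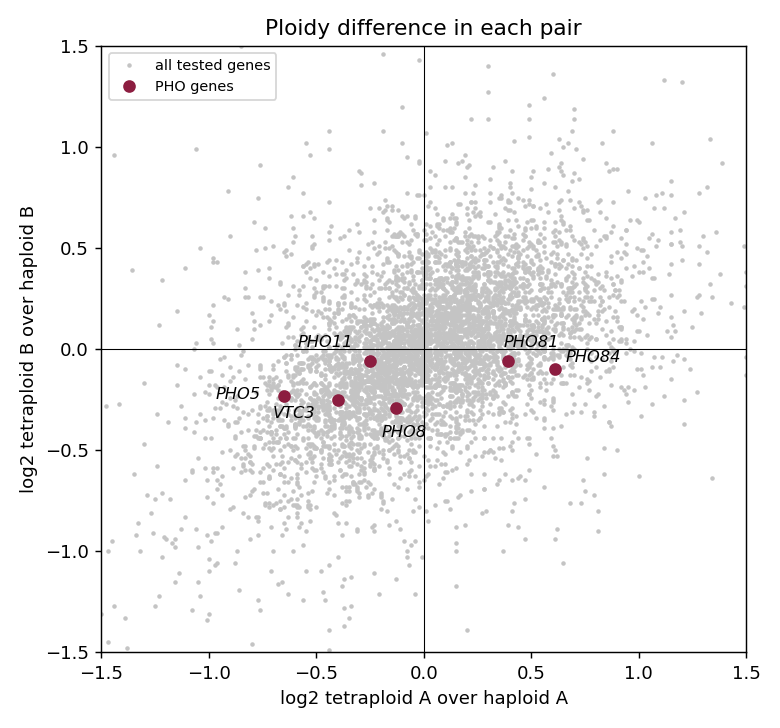
Log2 ratio of tetraploid to haploid CPM in pair A (horizontal axis) and pair B (vertical axis) for all tested genes (grey) and the 6 tested PHO genes (red), with 83 genes beyond the axes. PHO5, PHO11, PHO8 and VTC3 were below 0 in both pairs, while PHO84 (0.61 and -0.10) and PHO81 (0.39 and -0.06) had opposite signs.

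By Euclidean distance between log2 CPM values centred on each gene over the 4 libraries, the genes nearest to PHO84 among 4436 candidates were SPT3, a subunit of the SAGA coactivator (distance 0.0568), SIP5 (0.0882) and CDC20, an activator of the anaphase-promoting complex (0.0893). With 4 values per gene and 4436 candidates, some genes are bound to lie near. None of these 3 was called between ploidies (adjusted p of 0.552, 0.580 and 0.620 from edgeR's test). That follows from the choice, since they were picked in the same libraries to match PHO84, which was not called.

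The pairs were compared in the same fit, since both hold cultures of the same strains. None of the 6 PHO genes differed between pair B and pair A at an adjusted p under 0.05, where 9.49% of all tested genes did, 6.34% lower and 3.15% higher in pair B. The log2 differences, B over A, ran from -0.33 for PHO5 (95% interval -0.79 to 0.13) to -0.05 for PHO8 (-0.33 to 0.23).

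For the rest of the pathway, 30 further genes were listed and 28 tested. Of these, 3 (10.7%) were called lower in tetraploids and 0 higher. Among all tested genes 5.35% were called lower and 2.52% higher, or 7.87% in either direction. The median log2 fold change of the 28 genes was -0.10. All 3 belong to the 7 genes for other carriers and their relatives, a grouping that was not tested. The count of 3 fell to 0 without the block, with DESeq2, with no filter and with either scaling by summed counts. No gene was called among the 4 regulators, the 7 genes of polyphosphate turnover (-0.40 to 0.25) or the 3 enzymes of inositol pyrophosphates (0.16 to 0.22), the signal molecules read by SPX proteins such as Pho81. The value of -0.40 belongs to VTC2, which lies in S288C on chromosome 6, whose 102 tested genes had a median of -0.39.

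The regulators of the switch were measured in every library. The transcription factor gene PHO4 had 89, 117, 133 and 133 reads in haploids A and B and tetraploids A and B, with a log2 fold change of -0.07 (95% interval -0.43 to 0.30). In S288C it lies on chromosome 6, whose 102 tested genes had a median of -0.39. PHO2 had 42, 54, 66 and 86 reads in the same order and a log2 fold change of 0.22 (-0.22 to 0.66), with both tetraploids above both haploids in CPM. The cyclin gene PHO80 had 34, 24, 35 and 38 reads (-0.10, interval -0.71 to 0.50), and the kinase gene PHO85 128, 161, 161 and 191 reads (-0.15, interval -0.47 to 0.16). For PHO85 both tetraploids lay below both haploids in CPM. Of all tested genes 21.9% lay above and 20.5% below in this way. None of the 4 regulators was called, and the values of PHO4, PHO80 and PHO85 turned positive with summed counts (0.22, 0.18 and 0.13).

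Among the low-affinity phosphate transporters, the vacuolar transporter gene PHO91 was the one called lower in tetraploids. It had 319 reads in haploid A, 322 in haploid B, 321 in tetraploid A and 299 in tetraploid B, or 102 and 91.4 CPM in haploids and 75.4 and 62.5 in tetraploids. The groups did not overlap, and its log2 fold change of -0.49 ± 0.13 (standard error) had an adjusted p = 0.0304 in edgeR's test, and one of 0.509 when the pair was left out of the model. PHO90, a transporter of the plasma membrane, did not pass the threshold, with 105 ± 6.25 CPM in haploids against 84.0 ± 6.50 in tetraploids (SD, n = 2 each). Its log2 fold change was -0.32 with an interval of -0.59 to -0.05 (adjusted p = 0.125 from edgeR's test). PHO87, its paralog, had 67.6 and 49.1 CPM in haploids and 64.9 and 60.0 in tetraploids, which overlapped (0.11, standard error 0.14, adjusted p = 0.671). In S288C PHO87 lies on chromosome 3, whose 143 tested genes had a median of 0.27.

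**Figure D4:**
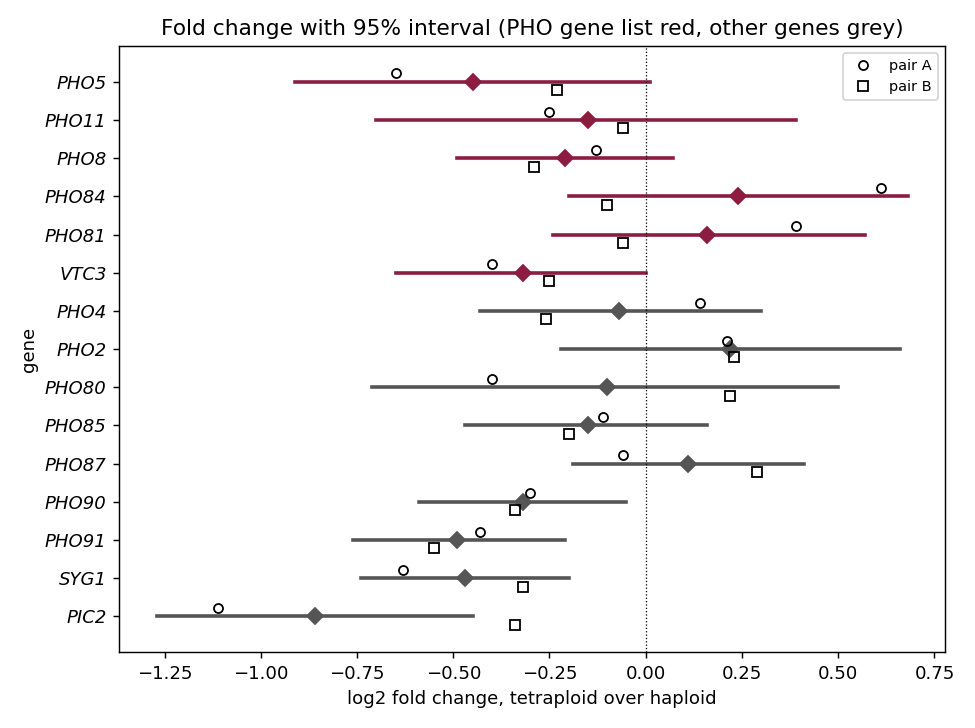
Log2 fold change, tetraploid over haploid (horizontal axis), from edgeR's fit with the pair as a block (diamonds) with its 95% interval (lines), and the ratio in pair A (circles) and pair B (squares). The intervals of the 6 PHO genes (red) touch or cross 0, and among the other genes drawn (grey) those of PHO90, PHO91, SYG1 and PIC2 lie below it.

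SYG1, a plasma membrane protein related to the mammalian phosphate exporter XPR1, was also called lower. It had 248 and 177 CPM in haploids and 160 and 142 in tetraploids, with all tetraploid values below the haploid ones. Its log2 fold change of -0.47 ± 0.13 (standard error) had an adjusted p = 0.0331 in edgeR's test and one of 0.541 without the block. Pair A gave -0.63 and pair B -0.32.

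PIC2, a mitochondrial carrier of copper and phosphate, differed far more between pairs than between ploidies. It had 249 reads in haploid A and 156 in tetraploid A, but 52 and 56 in their partners of pair B. The log2 difference of pair B over pair A was -2.05 (95% interval -2.47 to -1.63, adjusted p = 8.45e-06 from edgeR's test). Its log2 fold change between ploidies was -0.86 (adjusted p = 0.0129 from edgeR's test with the block, 0.676 without it), with -1.11 in pair A and -0.34 in pair B, and the ploidies overlapped in CPM. None of the 3 calls was made by DESeq2 (adjusted p of 0.431 for PHO91, 0.224 for SYG1 and 0.378 for PIC2) or with summed counts, while limma-voom made all 3.

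PHM8, a phosphatase gene known to be induced by phosphate starvation, also separated the pairs and is named after its values were seen. PIC2 and PHM8 were the 2 genes called between the pairs among the 28 tested further pathway genes, both lower in pair B. Of all tested genes 9.49% were called in that comparison, 6.34% lower in pair B. PHM8 had 103 reads in haploid A and 71 in tetraploid A, against 19 and 30 in haploid B and tetraploid B. The difference of pair B over pair A was -1.98 on the log2 scale (standard error 0.27, adjusted p = 0.000320 from edgeR's test). Between ploidies its log2 fold change was -0.63 (95% interval -1.18 to -0.08), which was not called (adjusted p = 0.143 from edgeR's test), with -0.98 in pair A and 0.22 in pair B. PHO84 and PHO5, at -0.06 (95% interval -0.50 to 0.38) and -0.33 (-0.79 to 0.13) between the pairs, were not called in that comparison.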

How the data were processed

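Poly(A) RNA of 2 haploid and 2 tetraploid cultures was sequenced for 36 cycles. The authors mapped reads to the Σ1278b genome with Bowtie 0.10.0, kept unique mappings, and deposited raw read counts per ORF on both strands, without normalization. An unlisted ORF entered the fit as 0; all 5680 tested genes were listed in every library. Counts were analysed with edgeR 4.0.16 (TMM, quasi-likelihood test, pair as a block), DESeq2 1.42.0 and limma 3.58.1 under R 4.3.3. The standard error is the log2 fold change divided by the square root of F. The study's methods pair the cultures, and same-pair libraries deviated together (r = 0.534 across genes, which are not independent). With 2 cultures per ploidy, each gene has few degrees of freedom of its own, and p-values rest largely on those borrowed across genes. Steps were checked on simulated counts. Names, chromosomes and coding lengths came from the R64 assembly of S288C, so no coordinates or sequences are printed. The genes and lists were chosen with earlier results of these data known. All 10 PHO genes, called pathway genes, 4 regulators, 3 low-affinity transporters and the 3 genes nearest to PHO84 (mean of at least 50 reads, 0.5 CPM added) are named. Alternatives were no block, other scalings, tools and filters, and each library left out.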

Additional observations from a re-analysis of the deposited data

How the results depend on the processing

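None of the 6 PHO genes was called in any of their 48 tests under the 8 alternatives that give a p (lowest adjusted p 0.103, PHO84 with summed counts). Unadjusted p-values under 0.05 were found for 2 of the 6 genes with summed counts, PHO84 and PHO81, both higher in tetraploids. With DESeq2 size factors in edgeR they were found for 2 other genes, PHO5 and VTC3, both lower. In these settings 41.2% and 26.4% of all tested genes had one. Leaving out each library left 1 complete pair, with values and no test: from -0.66 to -0.23 for PHO5, -0.25 to -0.06 for PHO11, -0.28 to -0.13 for PHO8, -0.10 to 0.61 for PHO84, -0.06 to 0.39 for PHO81 and -0.41 to -0.24 for VTC3, and, among called genes, -1.12 to -0.33 for PIC2, whose value without haploid A was -0.33. Of the 30 further pathway genes, 28 of them tested in the main fit, 0 instead of 3 were called lower in several settings. These were no replicate block, DESeq2, no filter, summed counts and sums outside the ribosomal DNA ORFs. Without the block only 18 of all 5680 tested genes were called lower. With summed counts 4 instead of 0 further pathway genes were called higher, where 1168 of all 5680 tested genes were. Summed counts moved the median of all genes to 0.30 and sums outside the ribosomal DNA to 0.21, and turned PHO11 to 0.13 and 0.05, PHO4 to 0.22 and 0.14, PHO80 to 0.18 and 0.10, PHO85 to 0.13 and 0.05, and, with summed counts alone, PHO8 to 0.08. For pair B over pair A they turned PHO11 to 0.06 and 0.03, PHO8 to 0.15 and 0.13, and PHO84 to 0.15 and 0.12. A change of scaling moves all genes by nearly the same amount, so values relative to the median of all genes are bound to stay. PHO11 stood at -0.16 relative to it under both. Which scaling is right was not tested. Over all genes, 304 were called lower and 143 higher with the block, 18 and 4 without it, 115 and 1168 with summed counts, 130 and 431 outside the ribosomal DNA, 490 and 262 with DESeq2 size factors, 87 and 12 with no filter, 380 and 216 with at least 15 reads in all 4 libraries, 124 and 17 with DESeq2, and 370 and 154 with limma-voom. With no filter, PHO89 and SPL2 were tested too and not called (adjusted p of 0.762 and 0.958). Low counts limit PHO11, PHO89 and SPL2 most.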
